A study of Rattus norvegicus with 40 samples.

Results

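Potassium channel genes were examined in the hippocampus of rats exposed to lead during development. The genes were those whose symbol begins with Kcn and which had a probe set of their own on the array, leaving out Kcne2 and Kcnj13. This gave 83 probe sets of 81 genes, out of 14506 genes with a probe set carrying a single symbol. Kcnip1 and Kcnip2 each had a second probe set, and the brighter one was used. By symbol, the 81 genes held 35 voltage-gated channel subunits, 15 auxiliary or regulatory subunits, 14 inward rectifiers, 11 two-pore channels and 6 calcium- or sodium-activated channels. Genes entered by symbol alone, though earlier results of these data were known. Measured signal chose only between the probe sets of Kcnip1 and of Kcnip2.

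Whole hippocampi were taken at postnatal day 55 and their RNA was hybridised to rat gene arrays that read along whole transcripts, each sample to its own array. The 40 samples fell into 10 groups of 4: controls on control chow, and animals given chow with 250 or 750 ppm lead acetate in 1 of 2 windows, each for males and for females by label. Perinatal exposure came through the dams, which ate lead chow from 10 days before breeding until weaning, after which the pups ate control chow. Postnatal exposure ran from birth to day 45, followed by control chow. The study asked how dose, window and sex bear on the hippocampal response to lead. The strain was not given in the labels, nor was it said whether littermates shared a group, so p-values reflect no more than the spread among these animals.

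Potassium channels set the resting potential of neurons, repolarise action potentials and shape firing patterns, and in glia they take up potassium released by active neurons. Voltage-gated subunits assemble as tetramers with auxiliary subunits that alter their gating and trafficking. Inward rectifiers and two-pore channels carry background current near rest, while calcium-activated channels link calcium entry to repolarisation.

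Signal is given as log2 of the normalised array intensity, and 1 unit is a doubling. A 2-sided limma test was made at each of 29214 probe sets and adjusted by Benjamini-Hochberg over all of them, and a gene was called at an adjusted p under 0.05. Of the 81 genes, 68 lay above the signal that bounded the dimmest 40% of probe sets, 6.30. The 13 below it were Kcna7, Kcna10, Kcne1, Kcne3, Kcnj1, Kcnj5, Kcnj15, Kcnk6, Kcnk15, Kcnmb3, Kcnn4, Kcnq1 and Kcnv2. The median SD within groups was 0.114 over the 81 genes and 0.114 over all genes. It ran from 0.049 for Kcna1, a delayed rectifier of axons, to 0.33 for Kcnh6.

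All 11 measured hippocampus markers lay above the dim bound, and their mean ran only from 10.21 to 10.39 over the arrays. The means of the striatum markers (7.85 to 8.09) and of the thalamus and habenula markers (6.73 to 7.24) were above that bound too. Passing it therefore does not test the tissue label. Choroid plexus and ependyma markers, by contrast, averaged from 6.39 to 10.37 on single arrays. Some features of the arrays touch the comparisons with controls. Eif2s3, an X-linked gene, read in the range of the other sex on 3 control arrays (male replicate 4, female replicates 1 and 3). A flattened signal scale marked 3 further arrays, of perinatal males, namely replicates 1 and 3 at 250 ppm and replicate 1 at 750 ppm. Sample numbers in the titles ran in 3 ranges, and the lowest held all 8 controls with the 4 female 750 ppm perinatal arrays only. What these numbers stand for is not given, and for the other 7 exposed groups exposure and number range cannot be told apart.

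One gene, Kcnj16, was called when all 32 exposed arrays were set against the 8 controls, and it was lower in the exposed animals. This was 1 of 81, against 0.38% of all probe sets called. Before adjustment, 7 of the 81 (5 higher, 2 lower) had p under 0.05, against 7.66% of all probe sets. The 81 differences had a median of 0.003, as did those of all genes, with 43 above 0 and 38 below. Their 95% intervals had a median distance of 0.09 from the estimate to either end, so 78 of 81 lay wholly within 0.25 of 0 and 81 of 81 within 0.5. By class, 20 of 35 voltage-gated, 6 of 15 auxiliary, 8 of 14 inward rectifier, 5 of 11 two-pore and 4 of 6 calcium- or sodium-activated genes were above controls. Whole tissue was measured, so fewer cells of a type and less RNA per cell cannot be told apart.

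**Figure D1:**
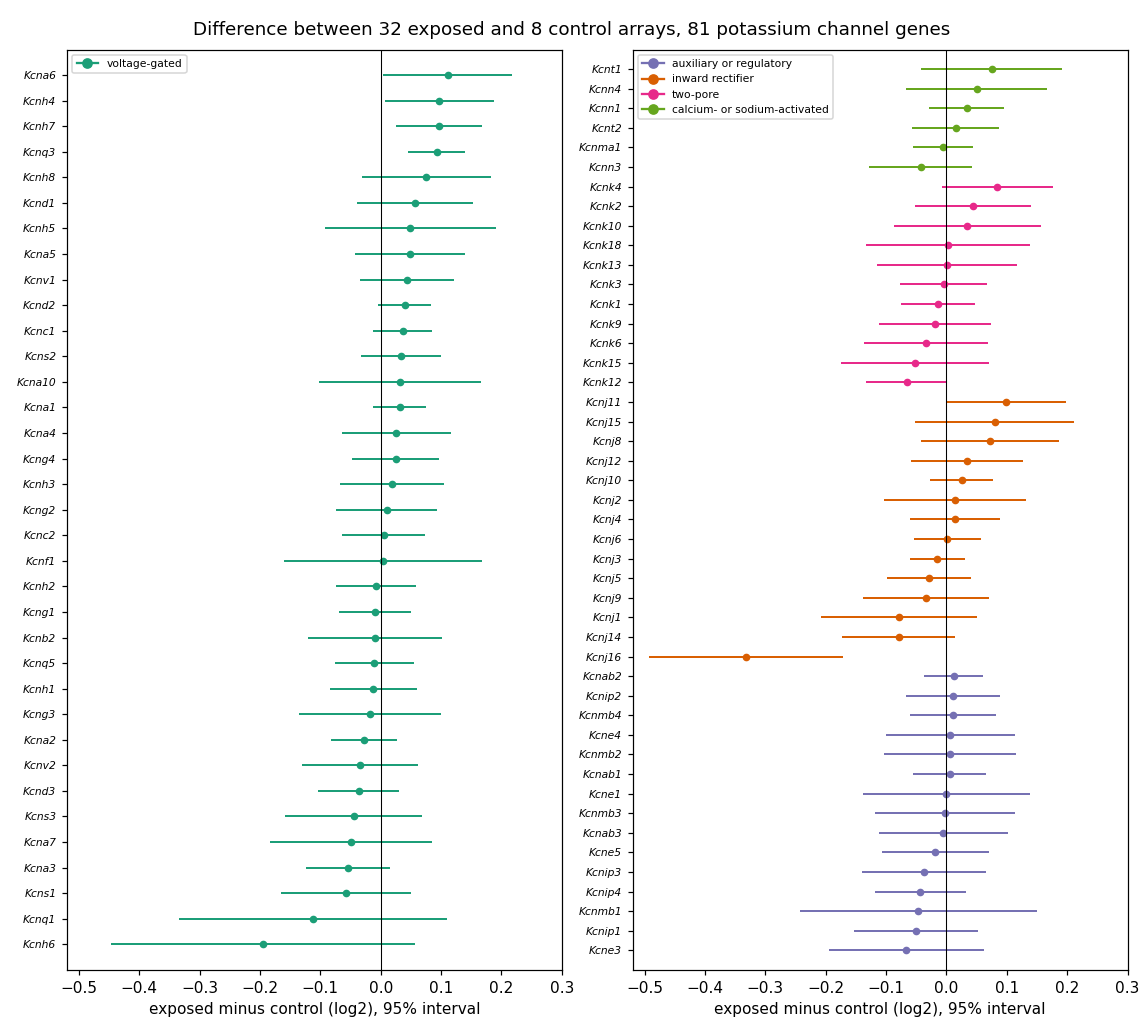
Difference in log2 signal between the 32 exposed and 8 control arrays for each of 81 potassium channel genes, coloured by class, with 95% intervals from limma. Nearly all points lie within 0.1 of 0, Kcnj16 lies at -0.33, and the widest interval belongs to Kcnh6.

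Kcnj16 encodes an inward rectifier subunit that joins the Kcnj10 subunit in pH-sensitive channels, of glia among other cells. The male controls read 7.88, 8.27, 8.05 and 8.06, and the female controls 7.96, 8.42, 7.92 and 7.86. The exposed arrays ran from 7.20 over a median of 7.75 to 8.12. Thus 23 of 32 exposed arrays lay below every control, although the ranges overlapped. The pooled difference was -0.33 (SE 0.08, 95% interval -0.49 to -0.17; limma adjusted p = 0.0470), between means of 7.72 ± 0.21 (SD, n = 32) and 8.05 ± 0.20 (SD, n = 8). It was below controls in 8 of 8 groups.

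Among males the arrays read 7.58, 7.55, 7.48 and 7.77 after perinatal 250 ppm and 7.20, 7.89, 7.85 and 7.77 after perinatal 750 ppm. The postnatal males read 7.61, 7.94, 7.41 and 7.44 at 250 ppm and 7.79, 7.83, 7.48 and 7.53 at 750 ppm. Both the perinatal 250 ppm and the postnatal 750 ppm males lay wholly below the male controls, and the other male groups overlapped them by the control at 7.88. The 4 male differences from controls were -0.47, -0.39, -0.46 and -0.41 in that order. The perinatal 750 ppm value rested on replicate 1 (7.20), a flattened array, and was -0.23 without it. Together the exposed males stood 0.43 below male controls, a difference of -0.43 that did not pass (limma adjusted p = 0.193).

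In females the perinatal groups read 7.86, 8.06, 7.44 and 7.78 at 250 ppm and 7.73, 7.69, 7.74 and 8.04 at 750 ppm. The postnatal groups read 7.70, 7.68, 7.86 and 8.12 at 250 ppm and 7.89, 7.86, 7.78 and 7.70 at 750 ppm. Each of these groups overlapped the female controls. The differences were -0.26, -0.24, -0.20 and -0.23, and -0.23 for all exposed females (limma adjusted p = 1.0). All 5 rested on female control replicate 2 (8.42), and without it they were -0.13, -0.11, -0.07, -0.11 and -0.11. The perinatal 250 ppm value was also -0.14 without its own replicate 3 (7.44). The sizes in females and males were not shown to differ: the 4 interaction estimates lay between 0.15 and 0.26 with a standard error of 0.20, and each 95% interval held 0. With 1 array left out they lay between -0.009, without perinatal 750 ppm male 1, and 0.39, without female control 2, and each interval still held 0.

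The Kcnj16 call was at the threshold. It was kept in 12 of the 40 fits that left out 1 array, where the difference ran from -0.36 to -0.27 and the adjusted p from 0.0275 to 0.197. The highest p came without female control replicate 2, whose value of 8.42 was the highest of all. Without the 3 controls of mismatched Eif2s3 the difference was -0.38 (limma adjusted p = 0.134). Within the lowest range of title numbers, the female 750 ppm perinatal group alone gave -0.24 (SE 0.14, 95% interval -0.53 to 0.05), and -0.11 without female control replicate 2 (95% interval -0.40 to 0.18).

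Myelin markers moved in the same comparison. Of 11 measured, 11 were higher in exposed animals and 6 were called, against 0.38% of all probe sets called. Their median difference was 0.20, against 0.003 over all genes. Their mean ran from 10.84 to 10.96 on control arrays and from 10.84 to 11.34 on exposed ones. The lowest range of title numbers held all 8 controls but only 4 exposed arrays, of perinatal females, which read 11.28, 11.20, 10.84 and 10.98. For the other exposed arrays, lead and number range cannot be told apart in this myelin difference. Around the group means, Kcnj16 had r = -0.46 and rho = -0.57 with the myelin mean (n = 40 arrays, permutation test, adjusted p = 0.0680 and 0.0287). With the hippocampus marker mean r and rho were 0.54 and 0.56 (permutation adjusted p = 0.0561 and 0.0431). Neither relation passed on both r and rho. Within the lowest and the middle range of title numbers r was -0.28 and -0.71 for myelin, and 0.40 and 0.56 for hippocampus markers. The part of tissue makeup in the Kcnj16 difference was not tested. Astrocyte markers had a median difference of 0.03, with 8 of 8 above controls and 0 called. Kcnj10, the partner of Kcnj16 in astrocytes, ran from 10.73 to 10.88 on controls and differed by 0.03 (95% interval -0.03 to 0.08).

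**Figure D2:**
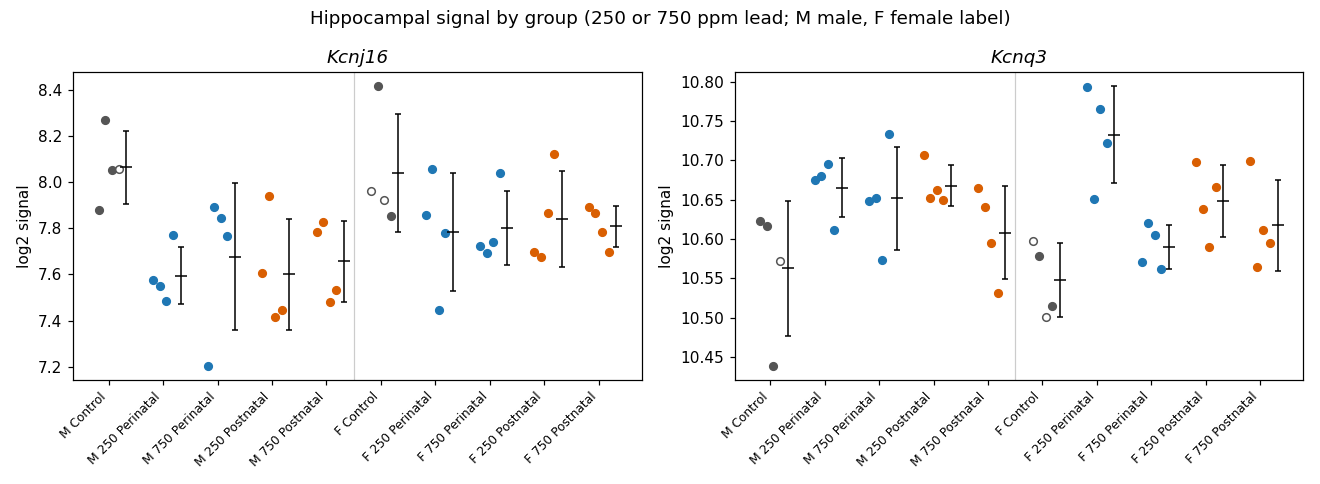
Log2 signal of Kcnj16 and Kcnq3 on each of 40 arrays by group (M male, F female label, dose in ppm); bars are the group mean and SD of 4 arrays, and open circles are the 3 controls whose Eif2s3 lay in the other sex's range. Kcnj16 sits lower in exposed groups, with the lowest means in males, and Kcnq3 is highest in females exposed perinatally to 250 ppm.

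Among the other inward rectifiers no gene was called. Kcnj11, the pore subunit of ATP-sensitive channels, was above controls in 8 of 8 groups with a pooled difference of 0.10 (limma adjusted p = 0.642). It differed most in females exposed perinatally to 750 ppm, whose arrays read 7.65, 7.61, 7.78 and 7.72 against 7.27, 7.41, 7.69 and 7.41 in female controls. The 2 groups overlapped through the control at 7.69, and the difference of 0.24 did not pass (limma adjusted p = 0.564). For Kcnj14, a strong inward rectifier, the male controls read 7.99, 7.99, 8.23 and 8.60. The 750 ppm perinatal males (7.93, 8.03, 7.87 and 8.0) and 250 ppm postnatal males (7.93, 7.94, 8.01 and 7.99) lay 0.24 and 0.23 lower on average, at differences of -0.24 and -0.23. Those rested on male control replicate 4, an array of mismatched Eif2s3, and without it they were -0.11 and -0.10. Kcnj2, a classical strong rectifier, read 7.90, 7.85, 7.75 and 7.98 in postnatal 750 ppm females against 7.55, 7.61, 7.88 and 7.57 in controls. The ranges overlapped and the difference was 0.22 (limma adjusted p = 1.0). Kcnj3 and Kcnj6, subunits of the G-protein-gated channels, had pooled differences of -0.015 and 0.001, with 95% intervals of -0.06 to 0.03 and -0.05 to 0.05.

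Among voltage-gated genes Kcnq3 came nearest to a call. It encodes a subunit of the M-current, a slow current that restrains repetitive firing. Control arrays ran from 10.44 over a median of 10.58 to 10.62, and exposed arrays from 10.53 over 10.65 to 10.79. The ranges overlapped, with 20 of 32 exposed arrays above every control. The pooled difference was 0.09 (SE 0.02, 95% interval 0.05 to 0.14; limma adjusted p = 0.0608, or 0.0438 to 0.268 with 1 array left out), and Kcnq3 was above controls in 8 of 8 groups. Females exposed perinatally to 250 ppm read 10.79, 10.65, 10.77 and 10.72 against 10.60, 10.58, 10.50 and 10.51 in female controls. These did not overlap, and the difference was 0.19 (SE 0.04; limma adjusted p = 0.122). It passed with both control groups taken as one (0.18, limma adjusted p = 0.0169) and with array weights (limma adjusted p = 0.0498). Within the lowest range of title numbers, the 750 ppm perinatal females (10.57, 10.62, 10.61 and 10.56) overlapped those controls and stood 0.04 above them (95% interval -0.04 to 0.12), or 0.03 without female control replicate 3. In perinatal 250 ppm males Kcnq3 differed by 0.10 (limma adjusted p = 0.547), which was 0.06 without male control replicate 3. The postnatal females differed by 0.10 at 250 ppm and 0.07 at 750 ppm (limma adjusted p = 1.0 for both), the latter being 0.04 without replicate 1 of that group.

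Kcnh7, a channel of the erg group, was likewise above controls in 8 of 8 groups, by 0.06 to 0.14, with a pooled difference of 0.10 (limma adjusted p = 0.350). Kcnd2, the main subunit of the dendritic A-type current in hippocampal pyramidal cells, was above controls in 8 of 8 groups by 0.01 to 0.08, and its pooled interval was -0.003 to 0.08. Kcna2, an axonal delayed rectifier, was below in 8 of 8, with a pooled difference of -0.03 (95% interval -0.08 to 0.02). The same control arrays enter 4 groups each, so a shared direction over groups is no independent repeat. Kcna6 had a pooled difference of 0.11 (limma adjusted p = 0.610), and in perinatal 250 ppm females its arrays (9.31, 9.37, 9.38 and 9.23) lay above all female controls (9.19, 9.07, 9.12 and 9.04), at a difference of 0.22 that did not pass (limma adjusted p = 0.785). Other well-studied members stayed near controls in the pooled comparison: Kcna1 at 0.03, the A-type Kcna4 at 0.03, the fast-spiking channel Kcnc1 at 0.04 and Kcnh1 at -0.01.

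No member was called in any of the 8 comparisons of an exposed group with controls of its sex label. In males, called probe sets made up 0.089% after 250 ppm perinatal, 0.0582% after 750 ppm perinatal, 0.0342% after 250 ppm postnatal and 0.0445% after 750 ppm postnatal exposure. At an unadjusted p under 0.05 there were 7 of 81 members against 7.11% of probe sets, 8 against 7.77%, 9 against 6.03% and 8 against 9.51%, in the same order. In females, the called shares were 0.0171% at 250 ppm perinatal, 0.157% at 750 ppm perinatal, 0.0171% at 250 ppm postnatal and 0.0137% at 750 ppm postnatal. The unadjusted counts were 8 members against 5.6%, 6 against 5.81%, 4 against 3.64% and 2 against 3.58%. For exposed males pooled, 0 members were called against 0.0445%, and 7 had an unadjusted p under 0.05 against 6.62%. For exposed females pooled it was 0 against 0.024% and 3 against 4.19%. Member medians stayed between -0.01 and 0.02 in the 8 comparisons. With 4 arrays a group the interval ends lay a median of 0.16 from the estimate, and 46 to 52 of 81 lay within 0.25 of 0 and 76 to 81 within 0.5.

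**Figure D3:**
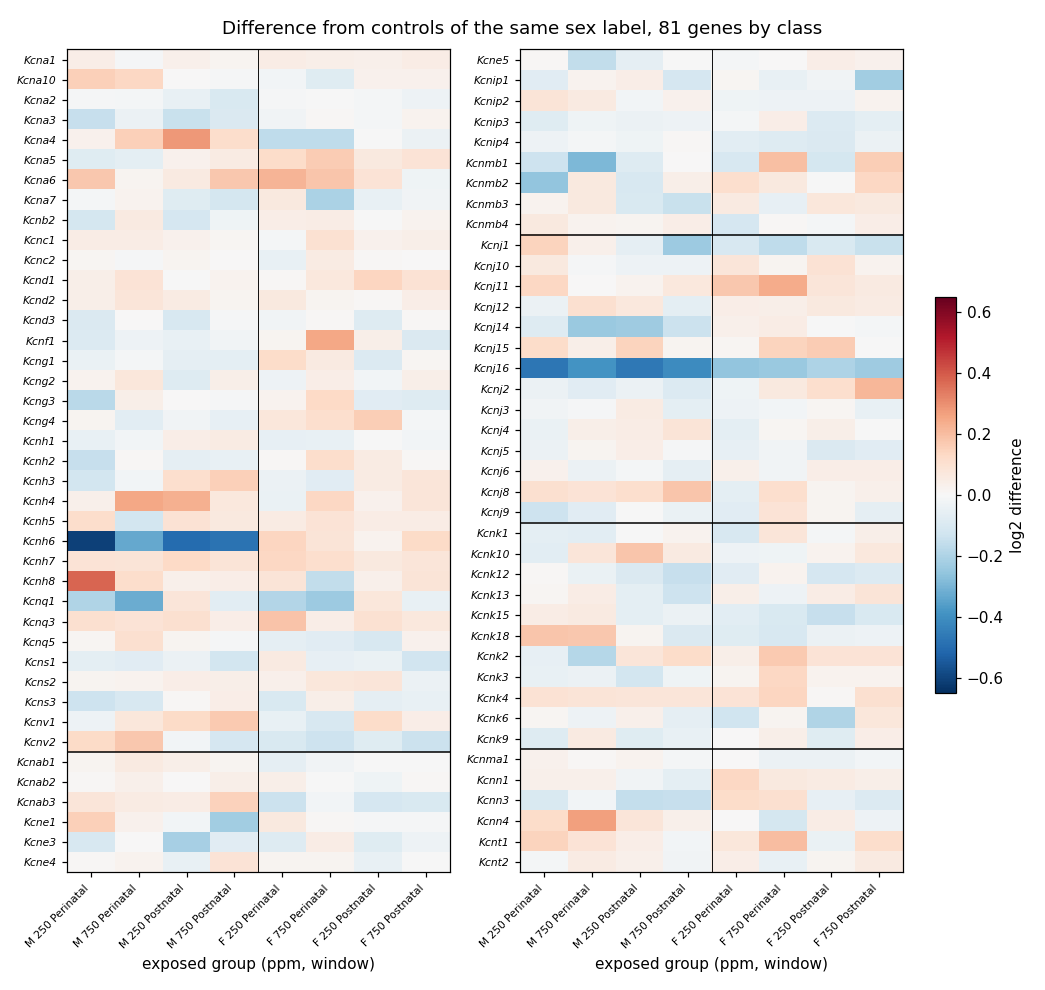
Difference in log2 signal of each of 81 genes from the 4 controls of the same sex label, for the 8 exposed groups, with genes ordered by class between black lines. Kcnj16 is below controls in every column; Kcnh6 is low in the male columns only, where 1 control array is high; most other cells are near 0.

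Members of the Kcnh family had some of the smallest p-values in males. Kcnh8, an elk-type channel of neurons, read 6.71, 6.87, 6.57 and 6.68 in perinatal 250 ppm males against 6.38, 6.38, 6.18 and 6.38 in male controls. The groups did not overlap, and the difference was 0.38 (SE 0.09; limma adjusted p = 0.160). No other exposed group lay wholly above its controls for this gene, and the perinatal 750 ppm females (6.24, 6.32, 6.20 and 6.23) were at or below the lowest female control, 6.32. Its relative Kcnh4 read 7.50, 7.34, 7.11 and 7.26 in perinatal 750 ppm males and 7.43, 7.23, 7.20 and 7.25 in postnatal 250 ppm males, against 7.05, 7.05, 7.01 and 7.10. Both groups lay above all male controls, by 0.25 and 0.23 on average (limma adjusted p = 0.351 and 0.619). For Kcnh6, male control replicate 4 read 8.66 and the other 39 arrays between 6.45 and 6.95. The difference in perinatal 250 ppm males was therefore -0.61 with that array and -0.11 without it. Kcnv1 and Kcnh3 were 0.17 and 0.15 above controls in postnatal 750 ppm males without passing (limma adjusted p = 0.434 and 0.520).

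Other voltage-gated genes were among those of smallest p in single female groups. Kcng4, a silent subunit, read 8.30, 8.37, 8.25 and 8.42 in postnatal 250 ppm females against 8.06, 8.28, 8.15 and 8.20 in controls. The ranges overlapped, and the difference was 0.16 (limma adjusted p = 1.0). Kcnc1 read 10.23, 10.25, 10.21 and 10.20 in perinatal 750 ppm females against 10.12, 10.23, 10.05 and 10.10, overlapping at a difference of 0.10 (limma adjusted p = 0.742). In the same females the dim Kcna7 differed by -0.20 (limma adjusted p = 0.918), or by -0.13 without replicate 2. Kcnv2, also dim, differed by -0.14 in postnatal 750 ppm females (limma adjusted p = 1.0).

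Kcna4, which carries a fast inactivating current in axons, was above controls in 4 of 4 male groups and below them in 4 of 4 female groups. In postnatal females the differences were near 0, at -0.003 for 250 ppm and -0.04 for 750 ppm. Male controls read 8.64, 8.67, 8.40 and 8.70, and postnatal 250 ppm males 8.97, 9.09, 8.68 and 8.80. They overlapped by one array, with a difference of 0.28 (limma adjusted p = 0.373). Female controls read 8.89, 8.89, 8.81 and 8.81, and the perinatal females 8.70, 8.76, 8.69 and 8.60 at 250 ppm and 8.70, 8.73, 8.59 and 8.72 at 750 ppm. Both perinatal female groups lay wholly below their controls, with differences of -0.16 and -0.17 (limma adjusted p = 0.875 and 0.834). The interaction of sex label and lead was -0.32 (SE 0.11) for perinatal 750 ppm and did not pass (limma adjusted p = 0.576). Female controls themselves were 0.25 above male controls (limma adjusted p = 0.994). These 2 control groups hold the 3 arrays of mismatched Eif2s3, so the opposite directions rest on controls of uncertain sex.

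**Figure D4:**
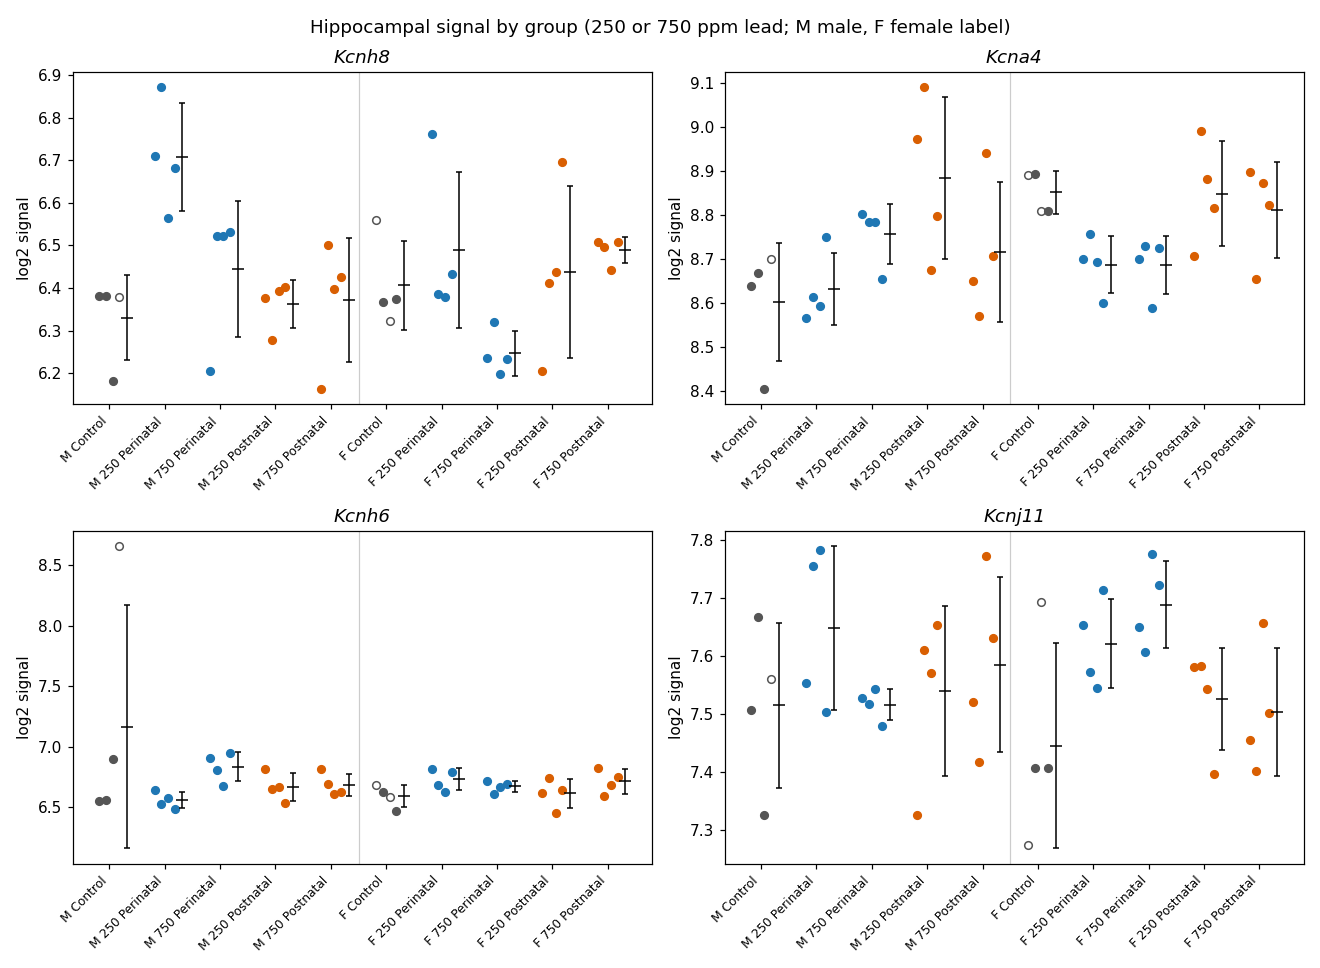
Log2 signal of Kcnh8, Kcna4, Kcnh6 and Kcnj11 on each of 40 arrays by group, with the group mean and SD of 4 arrays; open circles are the 3 controls of mismatched Eif2s3. Kcnh8 is high in perinatal 250 ppm males, Kcna4 is high in postnatal 250 ppm males and low in perinatal females, 1 male control stands apart for Kcnh6, and Kcnj11 is high in perinatal 750 ppm females.

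The auxiliary genes showed the narrowest pooled range, from -0.07 for Kcne3 to 0.01 for Kcnab2, a beta subunit of Kcna channels. Kcnip1, a calcium-binding partner of Kcnd channels, read 10.05, 9.64, 9.68 and 9.70 in postnatal 750 ppm females against 9.88, 10.00, 10.06 and 10.02 in controls. One array stayed among the controls, and the difference was -0.23 (limma adjusted p = 1.0). In postnatal 750 ppm males the same gene split, at 9.59, 9.60, 10.11 and 10.11. The second Kcnip1 probe set differed by -0.16 in the postnatal 750 ppm females, in the same direction, but its mean signal of 5.53 lay below the dim bound. Kcnip2, a partner of Kcnd2 in the dendritic current, had a pooled difference of 0.01 on its brighter probe set and -0.03 on the other, neither of them called. Kcnmb2, a beta subunit of large-conductance channels, read 6.25, 6.15, 5.73 and 6.07 in perinatal 250 ppm males, all below the male controls (6.27, 6.27, 6.31 and 6.39), at a difference of -0.26 (limma adjusted p = 0.487). Without replicate 3 (5.73), a flattened array, it was -0.15.

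No two-pore channel was called. Their pooled differences ran from -0.07 for Kcnk12 to 0.08 for Kcnk4, which was above controls in 8 of 8 groups. Kcnk1, abundant in astrocytes, had a pooled difference of -0.01 (95% interval -0.07 to 0.05) and differed by -0.11 in perinatal 250 ppm females, or -0.06 without female control replicate 2. Kcnk12 differed by -0.15 in postnatal 750 ppm males (limma adjusted p = 0.412) and by -0.11 in postnatal 250 ppm females (limma adjusted p = 1.0), the latter being -0.07 without replicate 3 of that group. Kcnk6 differed by -0.19 in postnatal 250 ppm females (5.87, 5.91, 6.19 and 5.85 against 6.08, 6.20, 6.36 and 5.96), with overlap and an adjusted p of 1.0 in limma, and by -0.13 without female control replicate 3. Kcnk2, a mechanically and lipid gated channel, had a pooled difference of 0.04.

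Calcium- and sodium-activated genes ranged from -0.04 for Kcnn3 to 0.08 for Kcnt1. The large-conductance pore gene Kcnma1 differed by -0.005 (95% interval -0.05 to 0.04). Kcnn1, a small-conductance channel of the afterhyperpolarisation, read 8.38, 8.35, 8.31 and 8.29 in perinatal 250 ppm females against 8.14, 8.18, 8.16 and 8.32, overlapping at a difference of 0.13 (limma adjusted p = 0.735). Kcnn4 was 0.27 above controls in perinatal 750 ppm males (6.49, 6.21, 6.11 and 6.34 against 5.96, 6.02, 6.09 and 6.01), without overlap (limma adjusted p = 0.495), at a signal below the dim bound.

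Dose had no called effect on these genes. Between 750 and 250 ppm, called probe sets made up 0.0411% in perinatal males, 0.0103% in postnatal males, 0.0856% in perinatal females and 0% in postnatal females. The members at an unadjusted p under 0.05 numbered 6 against 5.15%, 3 against 3.82%, 6 against 8.02% and 5 against 3.66%, in that order. Perinatal females gave the members of smallest p: Kcnq3 was lower at the higher dose (-0.14, limma adjusted p = 0.243) and Kcnk1 higher (0.18, limma adjusted p = 0.243). For Kcnk1 these females read 11.00, 11.03, 10.96 and 10.99 at 750 ppm and 10.84, 10.76, 10.83 and 10.81 at 250 ppm, with no overlap. In perinatal males Kcnmb2 was 0.32 higher at 750 ppm (limma adjusted p = 0.436), or 0.21 without 250 ppm replicate 3. In the perinatal window of both sexes the 2 doses lie in different ranges of title numbers, and an effect of dose cannot be told apart from one of range, whereas both postnatal doses fall in the middle range.

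Between windows, again no member was called. Postnatal and perinatal exposure differed at 0.00342% of probe sets in males at 250 ppm, 0.175% in males at 750 ppm, 0.0103% in females at 250 ppm and 0.0548% in females at 750 ppm. Members at an unadjusted p under 0.05 numbered 7 against 6.36%, 11 against 19.4%, 5 against 5.98% and 8 against 5.07%. In 750 ppm males the member of smallest p was Kcnk2, which read 8.42, 8.70, 8.94 and 8.81 after postnatal and 8.29, 8.48, 8.57 and 8.30 after perinatal exposure. These overlapped, and the difference was 0.31 (SE 0.08; limma adjusted p = 0.101). With 1 array of these groups left out, the difference ran from 0.23 to 0.41 and the limma adjusted p from 0.0334 to 0.430. It was called only without postnatal replicate 1, the lowest of that group. Kcnv2, a silent subunit that modifies other channels, was lower by an estimate of -0.28 (limma adjusted p = 0.116). With 1 array left out, its limma adjusted p ran from 0.0420 to 0.494, and it was called only without perinatal replicate 2. At 750 ppm the windows lie in different ranges of title numbers in males and in females, and window and range cannot be told apart there. In 250 ppm females Kcng1, also a silent subunit, was lower after postnatal exposure (9.83, 9.76, 9.87 and 9.91) than after perinatal exposure (10.08, 10.18, 9.96 and 9.98). The groups did not overlap, and the difference of -0.21 did not pass (limma adjusted p = 0.229). The myelin marker mean of these arrays ran from 11.03 to 11.28 after postnatal and from 11.09 to 11.34 after perinatal exposure.

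Between controls of the 2 sex labels no member was called. There 0% of probe sets were called, and 5 members had an unadjusted p under 0.05 against 4.63% of probe sets. For 3 members, Kcna4, Kcnab3 and Kcnh2, the ranges of the groups did not overlap, against 2.58% of probe sets. Eif2s3 read in the range of the other sex on 3 of these 8 control arrays. A difference between the sexes could therefore be missed here, and in the interactions with lead, which use the same controls. The interaction of sex label with lead called 0% of probe sets at 250 ppm in the perinatal window, 0% at 250 ppm postnatal, 0.0205% at 750 ppm perinatal and 0% at 750 ppm postnatal, and no member. The unadjusted member counts were 5 against 3.35%, 2 against 2.3%, 8 against 7.41% and 1 against 4.25%. The smallest p among members was that of Kcnk2 at 750 ppm perinatal, with an interaction of 0.36 (limma adjusted p = 0.526). An F-test over all 10 groups called 0.654% of probe sets and no member, while 14 members had an unadjusted p under 0.05 against 12.7% of probe sets. Kcnq3 had the smallest adjusted p there (0.138, limma), followed by Kcnh8, Kcna4 and Kcnk2 (0.151, 0.204 and 0.244).

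Genes that work with these channels were also counted. Of 26 partners and HCN pacemaker channels, 23 were measured and 0 were called in the pooled comparison or in any of the 8 groups. Pooled, 15 lay above and 8 below controls with a median of 0.01. The smallest p belonged to Lrrc38, a gamma subunit of large-conductance channels, at -0.13 (limma adjusted p = 0.326). Of 11 genes of potassium transport, 7 were measured, 2 above and 5 below controls, and 0 were called.

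Several members varied between animals together with cell type markers, within groups. Each of 81 genes was set against the mean of each of 10 marker lists over 40 arrays, after taking out the group means, which made 810 relations with 100000 permutations within groups and Benjamini-Hochberg adjustment over all. These relations were examined after the data had been seen. Leaving aside the choroid plexus list, 26 relations of 19 genes passed on both Pearson's r and Spearman's rho, 22 positive and 4 negative. The share of all genes that would pass with these lists was not computed. Whether 19 of 81 is unusual for channel genes is therefore not known. Arrays share their RNA between gene and markers, so a relation describes how the samples vary and not which cells hold the channel.

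With the hippocampus markers, the strongest was Kcnip2 (r = 0.73, rho = 0.72; permutation adjusted p = 0.0027 and 0.0032), which kept r = 0.67 without the 2 arrays farthest out on the marker axis. Within the lowest and the middle range of title numbers its r was 0.72 and 0.70. Kcnd1 (r = 0.72, rho = 0.77), an A-type channel subunit, Kcnq5 (0.70 and 0.70), an M-current subunit, and Kcnab2 (0.65 and 0.67) followed, with adjusted p of at most 0.0092 by permutation, r between 0.65 and 0.76 without the 2 farthest arrays, and r between 0.62 and 0.78 within these ranges. Kcnc2, a channel of fast-spiking interneurons, followed the interneuron markers (r = 0.68, rho = 0.73; permutation adjusted p = 0.0054 and 0.0020), at 0.69 without the 2 farthest arrays and at 0.70 and 0.67 within ranges.

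Myelin markers had relations in both directions. Kcnk9, an acid-sensitive leak channel (r = -0.67, rho = -0.71; permutation adjusted p = 0.0068 and 0.0061), Kcnq5 (r = -0.65, rho = -0.68), Kcng2 (r = -0.61, rho = -0.64) and Kcng1 (r = -0.53, rho = -0.65; permutation adjusted p = 0.0032 and 0.0058) were lower where myelin markers were higher. Kcna6 (r = 0.62, rho = 0.62; permutation adjusted p = 0.0092 and 0.0113) and Kcnh5 (r = 0.58, rho = 0.64) were higher. The largest permutation adjusted p among these 6 genes was 0.0167. Without the 2 farthest arrays Kcnk9 kept r = -0.67 and Kcna6 0.61, and within the lowest and the middle range Kcnk9 had -0.56 and -0.74 and Kcna6 0.62 and 0.63. Myelin markers were higher in exposed animals, though most exposed arrays lay outside the range of title numbers that held the controls. Of these 6 genes, Kcna6 had medians of 9.07 in controls and 9.19 in exposed animals, and Kcnh5 8.34 and 8.41. The medians, in the same order, were 10.27 and 10.24 for Kcnk9 and 9.96 and 9.93 for Kcng1. For Kcnq5 they were 10.55 and 10.59, and for Kcng2 9.86 and 9.86. The part of the myelin markers in any of these differences was not tested.

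Striatum markers went with Kcnf1 (r = 0.75, rho = 0.68; permutation adjusted p = 0.0068 and 0.0181), a silent subunit, and with Kcnj4 (r = 0.71, rho = 0.69; permutation adjusted p = 0.0068 and 0.0081), an inward rectifier of forebrain neurons. Leaving out the 2 farthest arrays gave 0.68 and 0.67. Within ranges Kcnf1 had 0.62 and 0.86, and Kcnj4 0.80 and 0.70. Kcnh7 (r = 0.66, rho = 0.64; permutation adjusted p = 0.0182 and 0.0194) followed thalamus and habenula markers, of which 4 of 8 were measured, with 0.69 without the 2 farthest arrays and 0.64 and 0.62 within ranges. The median pooled differences of the striatum and thalamus lists were -0.001 and 0.02, and 0 of their genes were called. Kcnip1 passed with 3 lists, those of astrocytes (r = 0.48, rho = 0.59), interneurons (r = 0.52, rho = 0.64) and microglia (r = 0.43, rho = 0.52), with r of 0.12, 0.24 and 0.19 within the lowest range of title numbers and 0.54, 0.61 and 0.48 within the middle one. The other 9 relations that passed, of 7 genes with interneuron, microglia, striatum or thalamus markers, were positive, with r from 0.54 to 0.66. The largest permutation adjusted p among these and those of Kcnip1 was 0.0479.

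Kcnq1, a channel of epithelia that lies below the dim bound here, varied with the choroid plexus and ependyma markers. The arrays formed 2 clusters by these markers, so no relation over all arrays is given. Within each cluster the group means were not taken out, arrays were permuted across groups, and p was not adjusted. In the 15 arrays of low marker signal (6.39 to 7.16) Kcnq1 ran from 5.73 over 5.98 to 6.24, with r = 0.27 and rho = 0.14 (permutation p = 0.325 and 0.626). In the 25 of high marker signal (8.02 to 10.37) it ran from 5.92 over 6.44 to 6.97, with r = 0.83 and rho = 0.89 (permutation p = 2e-05 for both, from doubling the smaller tail, and the smallest these permutations can give) and r = 0.79 without the 2 farthest. The choroid plexus markers were lower in exposed animals for 10 of 10 genes, at a median of -0.42 with 0 called, and the pooled Kcnq1 difference of -0.11 was not called either.

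**Figure D5:**
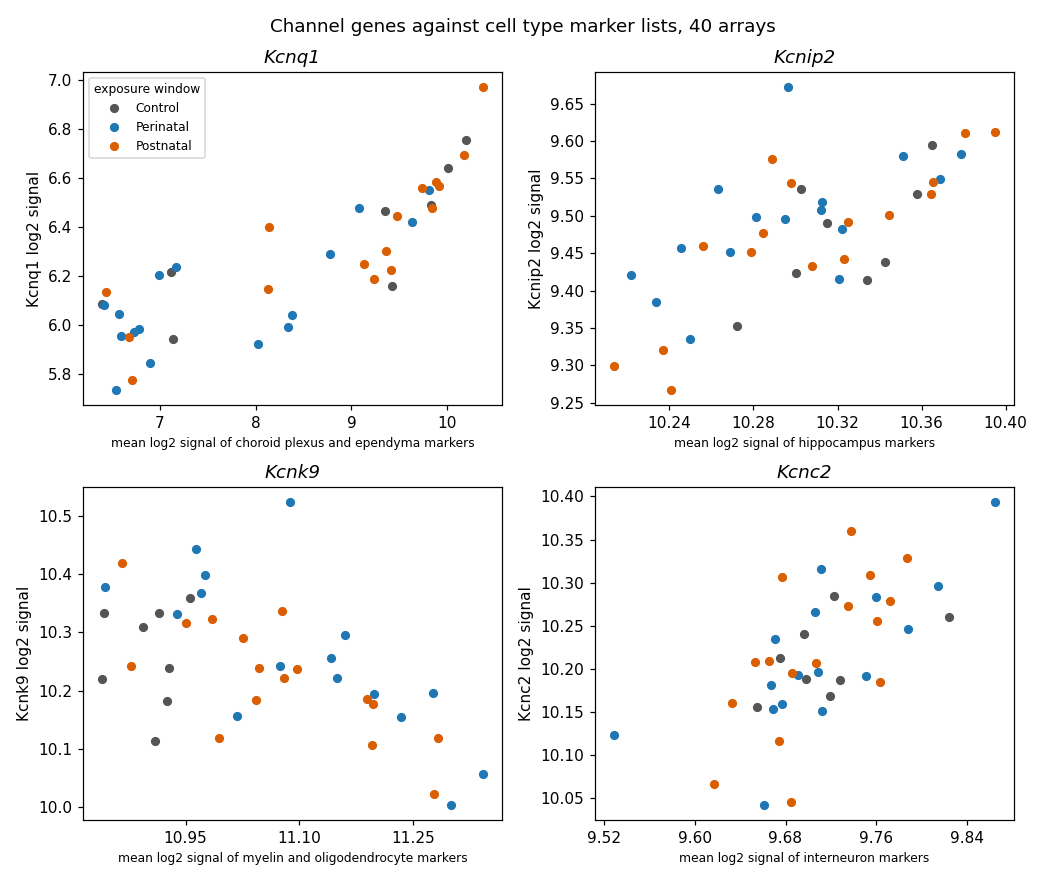
Log2 signal of Kcnq1, Kcnip2, Kcnk9 and Kcnc2 against the mean log2 signal of a marker list on each of 40 arrays, coloured by exposure window, before removal of group means. Kcnq1 climbs among the 25 arrays of high choroid plexus signal. Among the 15 of low signal, where Kcnq1 lies below the dim bound and the markers span little, no slope is resolved. Kcnip2 and Kcnc2 climb and Kcnk9 declines along their lists.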

How the data were processed

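RNA of 40 hippocampal samples (100 ng each) was measured on Affymetrix rat gene arrays. The deposited values are log2 signals. The authors used RMA (background correction, equalised distributions, probe summary) and Partek, per the submitters' processing notes, and no version or setting is given there. Array medians lay between 6.96 and 7.06, and values were used as deposited. Genes were named through the platform annotation, and 81 of 81 symbols matched current RefSeq symbols.

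A limma model (limma 3.58.1, R 4.3.3) with a mean for each of 10 groups was fitted to all 29214 probe sets and 40 arrays, with empirical Bayes moderation and a variance trend, giving 24 contrasts and an F-test. It was tested on simulated data. Two-sided p-values were corrected contrast by contrast with the Benjamini-Hochberg method. Samples were grouped by their labels alone. The number of arrays limits the precision.

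The members, gene lists and tests were chosen with earlier results of these data known. The genes named were every called member, the 2 members of smallest p above and below controls in each exposure comparison and in the pooled one, a set of well-studied hippocampal channels (some not reported here), and called genes of the partner lists. Members named beyond these, the dose, window and marker results among them, were chosen after their values were seen. Other settings tried were a filter on the dimmest 40% of probe sets, quantile normalization, array weights, no variance trend, the compared groups alone, both control groups as one, the mean of a gene's probe sets, and leaving out arrays.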

Additional observations from a re-analysis of the deposited data

Results flagged for a closer look

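For the genes named by rule, single arrays that stood far from the other 3 of their group (Dixon's test at the 95% level) occurred in 17 of 330 gene and group pairs, or 5.15%, and over all 81 genes in 47 of 810, or 5.8%. Chance alone marks about 1 in 20. The widest gap belonged to Kcnh6, which read 8.66 on male control replicate 4 and 6.55 to 6.90 on the others. Some came from arrays described above as unusual: Kcnh8 (6.21) and Kcnv1 (9.51) were lowest on male 750 ppm perinatal replicate 1, and Kcnv1 (9.68) was lowest on female control replicate 1.

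Among females exposed perinatally to 750 ppm, replicate 4 was highest for Kcnj16 (8.04), Kcnd2 (11.87) and Kcnk6 (6.30) and lowest for Kcnn4 (5.64), and replicate 1 was lowest for Kcnma1 (10.97). In male controls, replicate 2 was highest for Kcnc1 (10.24) and lowest for Kcnv1 (9.64), and replicate 3 was lowest for Kcnh8 (6.18). The remaining values were the lowest for Kcna4 in 750 ppm perinatal males (8.65), the highest for Kcnh8 (6.76) and the lowest for Kcnv1 (9.63) in 250 ppm perinatal females, the highest for Kcnk1 in 250 ppm postnatal females (11.05), and the highest for Kcnip1 in 750 ppm postnatal females (10.05). No interaction of sex label with lead was called for a member.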

How the results depend on the processing

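The number of members called in the pooled comparison was 1. It was 2 without the dimmest 40% of probe sets (Kcnj16 and Kcnq3), and 0 without the variance trend or without the 3 controls of mismatched Eif2s3. With array weights it was 1, but the gene was Kcnq3 (limma adjusted p = 0.0325) and Kcnj16 had an adjusted p of 0.0510; without the variance trend Kcnj16 had 0.0608. Leaving out 1 array gave 0 to 2 called members. Kcnj16 kept its call in 12 of these 40 fits: without male control replicate 1, perinatal 250 ppm male 4, perinatal 750 ppm males 1, 2 and 3, postnatal 250 ppm male 2, postnatal 750 ppm males 1 and 2, perinatal 250 ppm females 2 and 3, perinatal 750 ppm female 4 or postnatal 250 ppm female 4. Leaving out any other array ended it. The female 250 ppm perinatal count went from 0 to 1 (Kcnq3) with array weights and with both control groups as one, and the male pooled count from 0 to 1 (Kcnj16) with both control groups as one. The window count in 750 ppm males ranged from 0 to 1 without 1 array. Other counts of called members stayed at 0 in the settings run. Member medians moved by less than 0.062, the SD within groups of the members' median signal per array. That bound is wider than the medians of the 8 exposure comparisons (-0.006 to 0.023), so it cannot show that their signs held.

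Signs turned for pooled differences near 0. Kcnip2 was -0.000303 after quantile normalization and -0.0076 as the mean of its probe sets, Kcnj6 was -0.0028 after quantile normalization, and Kcnma1 was 0.0082 without the 3 mismatched controls. Without 1 array the ranges were -0.015 to 0.026 for Kcnip2, -0.0047 to 0.011 for Kcnj6, -0.016 to 0.0051 for Kcnma1, -0.029 to 0.011 for Kcnh1, -0.0073 to 0.042 for Kcna4, -0.036 to 0.011 for Kcnk1 and -0.031 to 0.0012 for Kcnj3. The cause was not tested. No paired analysis was possible because the titles carry sample numbers that groups do not share.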
